A study of Mus musculus and Homo sapiens
Mus musculus with 14 samples.

Results

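The genes of the sodium pump beta subunits (Atp1b1, Atp1b2 and Atp1b3) and of the plasma membrane calcium pumps (Atp2b1, Atp2b2, Atp2b3 and Atp2b4) were examined in the retina of wild-type CD1 IGS mice at postnatal day 18. They were taken by symbol and are 7 of the 24460 genes listed for the retinal layers and 7 of the 18415 listed for the amacrine cells. The data come from Light-Seq, in which RNA is copied into cDNA inside a fixed section and light is used to attach a DNA barcode to the cDNA of hand-drawn regions, so that the sequenced molecules can be sorted by region. In 4 sections the outer nuclear layer (ONL, barcode TATGGA), the bipolar cell layer (BCL, barcode GTTAGG) and the ganglion cell layer (GCL, barcode AGGGTA) were barcoded, giving 12 libraries, and in 5 other sections amacrine cells that stained for tyrosine hydroxylase (TH+, barcode GTTAGG) and neighbouring amacrine cells that did not (TH−, barcode AGGGTA) were barcoded, giving 10. All groups are wild type, each TH+ library pools the few TH+ cells of a section, the 4 layer sections were cut from 1 animal, and all sections are described as technical replicates. The p-values therefore measure the spread between sections and not between animals.

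The sodium pump (Na,K-ATPase) uses ATP to carry sodium out of the cell and potassium in, and it pairs a catalytic alpha subunit with a glycosylated beta subunit that is needed to bring the enzyme to the cell surface. In photoreceptors it works against the sodium that enters through light-sensitive channels in the dark. The plasma membrane calcium pumps use ATP to push calcium out of the cell and are activated by calmodulin, and they serve photoreceptors and synaptic terminals that are exposed to a sustained calcium load. Each class has several genes, called isoforms here, which differ in speed and in where they are used.

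Levels are given as counts per 1000000 UMIs of the library (CPM), where a UMI marks one original cDNA molecule. Libraries held 310228 to 801105 UMIs in the ONL, 193869 to 208437 in the BCL, 585655 to 785013 in the GCL, 30317 to 87449 in TH+ cells and 134394 to 200344 in TH− cells. Marker lists separated the layers: the 11 rod genes took 6.68 to 8.09% of the UMIs in the ONL, the 9 bipolar genes 0.732 to 0.850% in the BCL and the 9 ganglion cell genes 0.673 to 0.752% in the GCL, each above their range in the other layers. The 5 dopaminergic genes took 0.2098 to 0.435% in TH+ cells and 0.0132 to 0.0265% in TH− cells, where Ddc and Slc6a3 had no UMI.

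The layers differed in which beta subunit led per kilobase of gene length. Atp1b2, the beta2 subunit, was the main form in the ONL and the BCL, whereas Atp1b1, the ubiquitous beta1 subunit, led in the GCL. In the ONL, Atp1b2 reached 4956, 5954, 4942 and 4165 CPM in sections 1 to 4, with a mean of 5004 ± 733 (SD, n = 4). In the BCL it had 3358, 3133, 3399 and 3223 CPM (mean 3278 ± 123), and in the GCL 812, 1054, 1154 and 859 CPM (mean 969.5 ± 162). Every ONL section was above every BCL section and every BCL section above every GCL section. The fitted log2 fold change was 0.94 ± 0.12 (SE) for the ONL over the BCL, 2.53 ± 0.12 for the ONL over the GCL and 1.59 ± 0.12 for the BCL over the GCL (edgeR quasi-likelihood test, adjusted p = 1.95e-09, 7.04e-25 and 4.02e-16). In pooled tissue of this kind, fewer cells of a type and less RNA per cell cannot be told apart. The rod marker list moved with Atp1b2, at 1.47 to 2.42% of the UMIs in the BCL and 0.547 to 0.903% in the GCL, with all 11 genes detected in each layer. The sum of the rod list in the BCL was 24.2% of that in the ONL, while Atp1b2 stood at 65.5%, and in the GCL the list was at 9.21% and Atp1b2 at 19.4%. The part of rod RNA in the Atp1b2 level of the inner layers was not tested.

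Atp1b1 had the opposite order. It measured 1287, 1224, 1219 and 1429 CPM in the GCL (mean 1290 ± 97.9), 155, 177.5, 299.8 and 247 CPM in the BCL (mean 219.8 ± 66.3) and 175, 96.8, 109.6 and 158 CPM in the ONL (mean 135 ± 37.5). The 4 GCL sections lay far above the rest, whereas the ONL and BCL ranges overlapped. The fold change on the log2 scale was -3.09 ± 0.14 for the ONL over the GCL and -2.72 ± 0.15 for the BCL over the GCL (edgeR, adjusted p = 7.32e-26 and 2.84e-21). Between the ONL and the BCL it was -0.37 ± 0.19 and missed the threshold (edgeR, adjusted p = 0.115), although it passed without section 1 (-0.73, adjusted p = 0.00292), with library totals alone (-0.71, adjusted p = 0.00164) and with another size factor (-0.47, adjusted p = 0.0414). Without section 3 it was -0.093 (adjusted p = 0.790), and it also missed the threshold in DESeq2 (-0.47, adjusted p = 0.0894). The ganglion cell list in the BCL was 7.98% of its GCL level and the amacrine list 24.9%, beside 17.0% for Atp1b1. In the ONL these lists were at 7.93% and 14.6%, beside 10.4% for Atp1b1. In the annotation release used here for coordinates, which is later than that of the counts, exons of Atp1b1 share 587 bases with Nme7, a gene on the opposite strand with 40 UMIs in all 12 libraries, and 290 bases with the long noncoding RNA Gm32391, which had 2. The counting software was run with its default settings, which do not use strand, and whether those bases were shared exons in the release used for counting was not tested.

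Atp1b3, the beta3 subunit, was below Atp1b1 and Atp1b2 per kilobase in every library and had its lowest level in the ONL. It had 11.2, 8.30, 9.13 and 12.9 CPM in the ONL, from 23 UMIs in all 4 sections, against 30.95, 33.6, 55.9 and 49.4 CPM in the BCL and 44.6, 40.5, 32.3 and 44.4 CPM in the GCL. The ONL sections did not overlap with the others, while the BCL and the GCL did overlap. Atp1b3 was lower in the ONL than in the BCL (log2 fold change -1.71 ± 0.38, edgeR, adjusted p = 2.0e-04) and than in the GCL (-1.81 ± 0.30, adjusted p = 5.29e-07). The value for the BCL over the GCL was -0.10 ± 0.28 (edgeR, adjusted p = 0.823) and changed sign with library totals alone (0.07) and without section 1 (0.07).

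**Figure D1:**
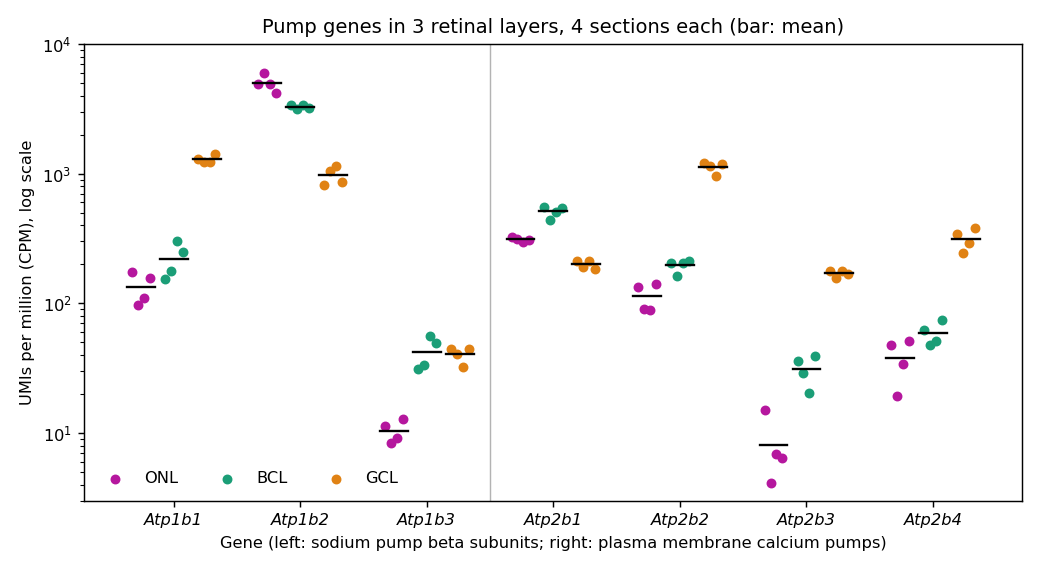
Level of each pump gene (vertical axis, CPM on a log scale) in the ONL, BCL and GCL, with 1 point for each of 4 sections and a black bar at the mean. Atp1b2 falls from 5004 to 969.5 CPM between the ONL and the GCL, while Atp1b1, Atp2b2, Atp2b3 and Atp2b4 are highest in all 4 GCL sections.

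Among the calcium pumps, Atp2b1 ran against the other isoforms in the comparisons with the GCL, but not between the ONL and the BCL. Atp2b1 (PMCA1), the pump found in most cell types, had its highest level in the BCL, with 557, 441.4, 508 and 544 CPM (mean 513 ± 51.8). It had 325, 314, 297 and 309 CPM in the ONL (mean 311 ± 11.5) and 210.2, 192, 214 and 183 CPM in the GCL (mean 199.6 ± 14.8). The ranges of the layers did not overlap. It was higher in the BCL than in the GCL (log2 fold change 1.19 ± 0.12, edgeR, adjusted p = 9.97e-12) and higher in the ONL than in the GCL (0.81 ± 0.11, adjusted p = 1.92e-08). Its difference between the ONL and the BCL was smaller (-0.38 ± 0.12, edgeR, adjusted p = 0.00906) and was not called without section 3 (adjusted p = 0.0679) or without section 4 (adjusted p = 0.102). The bipolar and Müller glia lists were also highest in the BCL, and in the ONL they stood at 9.58% and 12.3% of their BCL level, beside 60.7% for Atp2b1. The 4 endothelial genes took 0.0930 to 0.1001% of the UMIs in the BCL, 0.00639 to 0.0145% in the ONL and 0.0158 to 0.0215% in the GCL, and the 3 horizontal cell genes 0.0178 to 0.0259%, 0.00137 to 0.00205% and 0.00154 to 0.00753%, with every gene of both lists detected in each layer. The part of these cells in the Atp2b1 level was not tested.

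Atp2b2, Atp2b3 and Atp2b4 were all highest in the GCL. Atp2b2 (PMCA2), a fast pump of neurons and hair cells, had 1208, 1142, 958 and 1195 CPM in the GCL (mean 1126 ± 116), 206, 163, 203 and 213 CPM in the BCL (mean 196 ± 22.5) and 134, 89.9, 89.0 and 142 CPM in the ONL (mean 114 ± 28.1). Per kilobase of gene length it was the first of the calcium pumps in every GCL section. The log2 fold change was -3.16 ± 0.13 for the ONL over the GCL and -2.69 ± 0.14 for the BCL over the GCL (edgeR, adjusted p = 1.87e-27 and 2.26e-22). The lower level in the ONL than in the BCL (-0.47 ± 0.18, edgeR, adjusted p = 0.0338) was the weakest of the calls. It was lost without section 2, 3 or 4 (adjusted p = 0.0965, 0.2094 and 0.0857) and with no filter on low counts (adjusted p = 0.0818). The astrocyte markers Gfap and Pax2 together took 0.0122 to 0.0195% of the UMIs in the GCL, 0.00103 to 0.00203% in the BCL and 0.000415 to 0.00300% in the ONL. The 4 microglia genes took 0.00538 to 0.00943%, 0.00148 to 0.00576% and 0.000277 to 0.00193%, so that the GCL and BCL ranges overlapped. Every gene of both lists was detected in each layer, and the part of these cells in the levels of the GCL was not tested.

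Atp2b3 (PMCA3), an isoform largely restricted to the nervous system, had the largest fold change of the 7 genes between the ONL and the GCL. The GCL gave 177, 157, 177 and 169 CPM, the BCL 36.1, 28.8, 20.3 and 39.55 CPM and the ONL 14.98, 4.15, 6.85 and 6.45 CPM. The layers did not overlap, but the ONL sections held 12, 3, 3 and 2 UMIs. The log2 fold change was -4.07 ± 0.23 for the ONL over the GCL, -2.60 ± 0.24 for the BCL over the GCL and -1.47 ± 0.43 for the ONL over the BCL (edgeR, adjusted p = 4.35e-22, 1.91e-13 and 0.00469). Without section 1, which held most of the ONL UMIs, the ONL value was -4.72 over the GCL and -2.06 over the BCL (adjusted p = 3.43e-20 and 0.00198), and without section 4 it was -1.23 over the BCL (adjusted p = 0.0558).

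Atp2b4 (PMCA4), the other widely expressed isoform, had 344, 246, 294 and 379 CPM in the GCL, 61.9, 48.0, 50.8 and 74.2 CPM in the BCL and 47.4, 19.4, 34.2 and 51.6 CPM in the ONL. The GCL stood apart, and the ONL and BCL ranges overlapped. The log2 fold change was -2.93 ± 0.18 for the ONL over the GCL and -2.59 ± 0.21 for the BCL over the GCL (edgeR, adjusted p = 4.51e-21 and 2.62e-15), and -0.34 ± 0.31 for the ONL over the BCL, which was not called (adjusted p = 0.423). Relative to the GCL, the BCL levels of Atp1b1, Atp2b2, Atp2b3 and Atp2b4 lay close together, at 17.0%, 17.4%, 18.3% and 18.6%. In the ONL, Atp2b3 was at 4.77% of its GCL level and the other 3 were at 10.1 to 12.1%.

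Over all genes tested, the comparison of the ONL with the BCL called 18.5% higher in the former and 18.2% higher in the latter, and among the 7 pump genes these numbers were 1 and 4. The ONL and GCL comparison called 29.3% of genes higher in the ONL and 32.2% lower, beside 2 and 5 pump genes. From the BCL to the GCL, 16.1% of genes were called lower and 20.4% higher, beside 2 and 4 pump genes. The median log2 fold change of the 7 genes was -0.38, -2.93 and -2.59 in the 3 comparisons, against 0.09, 0.00 and -0.02 over all genes tested. The comparisons share libraries, since each layer enters a pair of them. With library totals in place of TMM scaling the medians over all genes moved to -0.25, -0.16 and 0.15, and the directions of the members stated above were kept, except that of Atp1b3 between the BCL and the GCL.

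**Figure D2:**
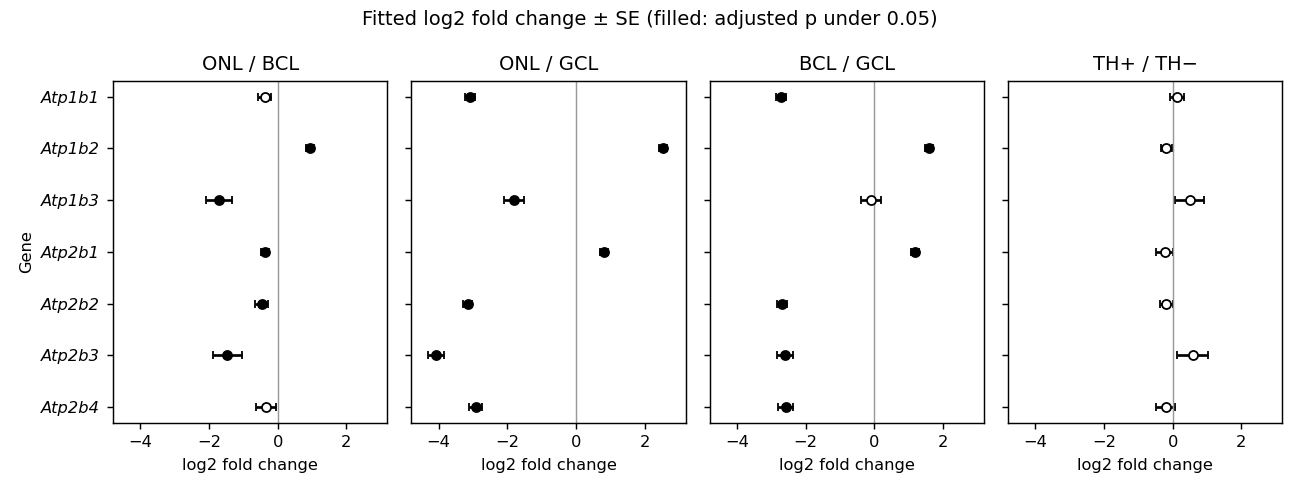
Fitted log2 fold change with its standard error for each gene in the 3 layer comparisons (12 libraries) and in TH+ over TH− amacrine cells (10 libraries), with filled points where the edgeR adjusted p was under 0.05. Atp1b2 lies right of 0 in each layer comparison, and no point is filled for the amacrine cells.

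The RefSeq promoter table on build GRCm38.p6 matched 5 of the 7 genes, and the 250 bases upstream of a start site are shown for 3 of the genes highest in the GCL and for Atp2b1, the calcium pump that was lowest there per kilobase. Capitals mark CCGCCC, the GC box, on either strand (read as GGGCGG on the other). The windows are chr1:164458356-164458605 (minus strand) for Atp1b1, chr6:114042081-114042330 (minus strand, the outermost of its listed starts) for Atp2b2, chr1:133753748-133753997 (minus strand) for Atp2b4 and chr10:98914392-98914641 (plus strand, the outermost start) for Atp2b1.
Atp1b1: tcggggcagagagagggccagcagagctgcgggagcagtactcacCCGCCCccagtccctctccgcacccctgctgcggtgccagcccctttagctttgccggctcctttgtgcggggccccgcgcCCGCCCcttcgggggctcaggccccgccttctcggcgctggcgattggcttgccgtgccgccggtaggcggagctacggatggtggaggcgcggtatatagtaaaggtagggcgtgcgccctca
Atp2b2: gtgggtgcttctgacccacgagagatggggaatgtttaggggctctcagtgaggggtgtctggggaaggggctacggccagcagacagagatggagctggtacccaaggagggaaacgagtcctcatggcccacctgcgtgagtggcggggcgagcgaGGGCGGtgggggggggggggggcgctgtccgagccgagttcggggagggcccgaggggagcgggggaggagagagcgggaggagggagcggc
Atp2b4: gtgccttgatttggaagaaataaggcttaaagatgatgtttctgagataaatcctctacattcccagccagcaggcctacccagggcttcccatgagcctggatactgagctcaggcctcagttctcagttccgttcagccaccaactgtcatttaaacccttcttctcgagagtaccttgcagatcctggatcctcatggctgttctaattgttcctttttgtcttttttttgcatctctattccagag
Atp2b1: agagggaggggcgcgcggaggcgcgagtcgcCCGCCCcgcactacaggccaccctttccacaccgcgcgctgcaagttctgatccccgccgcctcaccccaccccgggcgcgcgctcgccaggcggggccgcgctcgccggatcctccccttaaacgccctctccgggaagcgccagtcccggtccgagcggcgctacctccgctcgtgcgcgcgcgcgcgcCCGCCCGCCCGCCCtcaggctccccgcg
The Atp2b4 window differs from the others in base composition, with 45.6% G and C and 2 CpG dinucleotides, against 70.4% and 24 for Atp1b1, 69.6% and 16 for Atp2b2 and 78.4% and 43 for Atp2b1. No other start of Atp2b4 was listed, and whether this start is the outermost of the gene or lies inside it was not tested. Its base composition may thus not be that of the outermost Atp2b4 promoter. The median G and C content over all 32851 windows of this table was 52.4%. CCGCCC was present in 6 of the 9 windows of the 5 matched genes and in 32.7% of all windows. CACGTG, the E-box, was in 1 window, of Atp1b3, and in 6.02% of all windows. TAATCC and TAATTA, short homeodomain motifs, were in none of the 9, and in 6.25% and 4.84% of all windows. Both strands were searched, and no motif of these 4 contains another.

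Isoforms were compared with each other per kilobase of gene length, since a longer gene can yield more cDNA from random priming. The lengths in the deposited tables were 3081 bases for Atp1b1, 4085 for Atp1b2, 2389 for Atp1b3, 15218 for Atp2b1, 12612 for Atp2b2, 4820 for Atp2b3 and 12248 for Atp2b4. On this scale, of CPM per kilobase, the beta subunits ranked Atp1b2, Atp1b1, Atp1b3 in all 4 ONL and all 4 BCL sections. The order was Atp1b1, Atp1b2, Atp1b3 in all 4 GCL sections, and no neighbours in these orders overlapped within a layer.

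Atp1b2 made up 95.2, 97.7, 96.8 and 94.7% of the beta subunit signal per kilobase in the ONL, 92.9, 91.4, 87.3 and 88.7% in the BCL and 31.3, 38.4, 40.9 and 30.4% in the GCL. Atp1b1 made up 4.45, 2.11, 2.85 and 4.76% in the ONL, 5.67, 6.87, 10.2 and 9.02% in the BCL and 65.8, 59.1, 57.2 and 67.0% in the GCL. The means for Atp1b1 were 3.54 ± 1.27%, 7.94 ± 2.05% and 62.3 ± 4.83%. Both shares separated every pair of layers without overlap, with an exact two-sided permutation p of 0.0286 for each pair (n = 4 and 4), the smallest that unpaired sections allow. Paired by section, each of these gave an exact p of 0.125, the smallest for 4 pairs, so no layer share passes in the paired test. The share of Atp1b3 was 0.352 ± 0.114% (ONL), 1.98 ± 0.485% (BCL) and 2.52 ± 0.418% (GCL), and the inner layers did not separate (difference -0.54 ± 0.32 percentage points, exact permutation p = 0.143).

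The calcium pumps also changed rank. Per kilobase, Atp2b1 was first and Atp2b2 second in all 4 sections of the ONL and of the BCL, whereas the GCL had Atp2b2 first, Atp2b3 second, then Atp2b4 and Atp2b1 last in all 4. The lower places of the ONL (Atp2b4 before Atp2b3, at 3.12 ± 1.19 and 1.68 ± 0.98 CPM per kilobase) and of the BCL (Atp2b3 before Atp2b4, at 6.47 ± 1.77 and 4.79 ± 0.97) were the same in every section, but the ranges of those neighbours overlapped. These places depend on the length correction. In plain UMIs Atp2b3, the shortest of the 4 genes, was last in all 12 layer libraries, and the GCL order became Atp2b2, Atp2b4, Atp2b1, Atp2b3 in all 4 sections, with Atp2b3 at 9.43 ± 0.902% in place of 21.7 ± 1.82% and Atp2b1 at 11.1 ± 1.45%.

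Atp2b1 took 54.8, 68.3, 63.4 and 54.8% of the calcium pump signal per kilobase in the ONL, 55.9, 56.0, 57.7 and 53.5% in the BCL and 7.92, 8.09, 9.32 and 6.95% in the GCL. Atp2b2 rose from 26.0 ± 3.42% in the ONL and 25.8 ± 1.40% in the BCL to 54.6 ± 3.16% in the GCL. Atp2b3 had 4.76 ± 2.27%, 10.6 ± 2.26% and 21.7 ± 1.82%, and Atp2b4 had 8.90 ± 2.62%, 7.87 ± 0.821% and 15.7 ± 2.09%, in the same order. The GCL was separated from the ONL and from the BCL for each of the 4 pumps (exact two-sided permutation p = 0.0286, n = 4 and 4). Between the ONL and the BCL no calcium pump share passed. The differences were 4.57 ± 3.46 percentage points for Atp2b1 (exact permutation p = 0.314), 0.27 ± 1.85 for Atp2b2 (p = 0.886), -5.87 ± 1.60 for Atp2b3 (p = 0.0571) and 1.03 ± 1.37 for Atp2b4 (p = 0.514). In all, 21 shares were compared between layers and 16 had an unadjusted p of 0.0286 in the exact permutation test. These are not separate results, since shares within a class depend on each other and the pairs of layers share libraries.

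**Figure D3:**
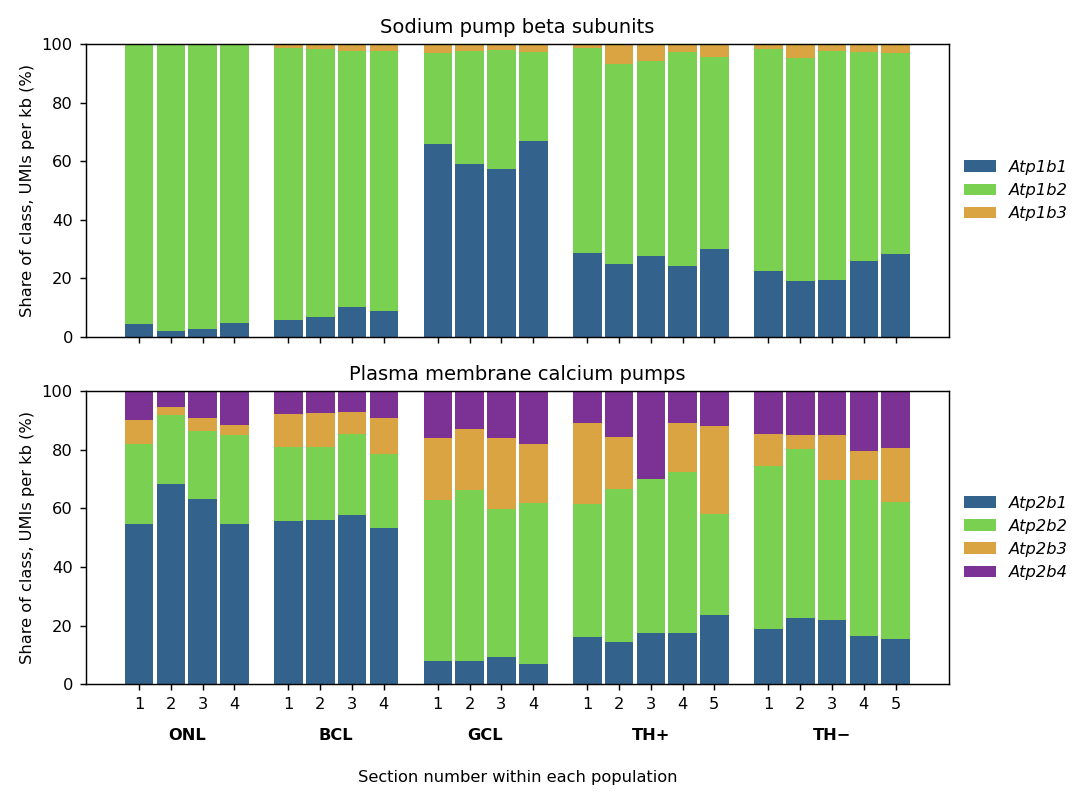
Share of each isoform within its class (vertical axis, percent of UMIs per kilobase) in every library, with bars grouped by population and numbered by section. Atp1b1 takes 57.2 to 67.0% of the beta subunit signal in the GCL and at most 10.2% in the ONL and BCL, and Atp2b1 takes at most 9.32% of the calcium pump signal in the GCL.

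Summed over the genes of a class, the sodium pump beta subunits stood at 5149 ± 707 CPM for ONL, 3541 ± 169 for BCL and 2300 ± 111 for GCL libraries. The calcium pumps ran the other way, at 471 ± 50.9, 799 ± 87.7 and 1811 ± 146 CPM. The lowest ONL section for the beta subunits (4336 CPM) was above the highest BCL section (3755 CPM), and the lowest GCL section for the calcium pumps (1641 CPM) was above the highest BCL section (870.1 CPM). The share of mitochondrially encoded UMIs rose in the order of the calcium pumps, from 4.26 to 5.50% in the ONL and 5.71 to 6.79% in the BCL to 8.59 to 9.36% in the GCL, and its part in these sums was not tested.

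The contrast of TH+ and TH− amacrine cells asked whether dopaminergic amacrine cells, a rare type that releases dopamine, differ from their neighbours. None of the 7 genes was called by edgeR, where 0.747% of 6021 genes were called higher in TH+ cells and 0.083% higher in TH− cells, none had an unadjusted p under 0.05 (smallest 0.204), and DESeq2 also called 0, with 0 under an unadjusted p of 0.05. With the section as a block, the calls over all genes rose from 45 and 5 to 96 and 52, and the pump genes still gave 0. Their smallest unadjusted p in that edgeR fit was 0.0560, for Atp1b2 (log2 fold change -0.19, adjusted p = 0.487). In the edgeR fit without the low-count filter, Atp1b2 had an unadjusted p of 0.0398 (-0.34, adjusted p = 0.646). The CPM ranges of the populations overlapped for all 7 genes, and they did not overlap for 2.28% of the 6021 genes tested.

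Atp1b2 was the main beta subunit in both populations. It had 1797, 1532, 2258, 2076 and 2474 CPM in the TH+ libraries of sections 1 to 5 and 2340, 2048, 2537, 2121 and 2206 CPM in the TH− libraries (means 2027 ± 372 and 2251 ± 194, log2 fold change -0.18 ± 0.15, edgeR, adjusted p = 0.807). Atp1b1 had 551, 423, 706, 519 and 858 CPM in TH+ cells and 526, 388, 476, 579 and 691 CPM in TH− cells (0.13 ± 0.19, adjusted p = 0.928). Per kilobase the order was Atp1b2, Atp1b1, Atp1b3 in all 10 libraries, as in the ONL and the BCL, while the Atp1b1 share, of 27.1 ± 2.45% in TH+ and 23.1 ± 4.05% in TH− cells, had a value between those of the BCL and the GCL. The amacrine and layer tables were sequenced apart and were not tested against each other.

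The Atp1b2 share was 68.7 ± 3.06% in TH+ and 74.0 ± 3.93% in TH− cells, lower in TH+ cells in 4 of 5 sections. The difference was -5.30 ± 2.23 percentage points, with an exact two-sided permutation p of 0.0476 (n = 5 and 5). It was the single share of the 7 compared with a p under 0.05. Counted in plain UMIs the difference was -4.46 ± 1.90 points with an exact permutation p of 0.0635, and with sections paired the same -5.30 points gave an exact sign-flip p of 0.125, so the size was similar and the p passed in neither case. The rod list was at 1.58 to 4.11% of the UMIs in TH+ and 0.905 to 2.36% in TH− cells, with all 11 genes detected in both, and so was higher where the Atp1b2 share was lower. The Müller glia list was lower in TH+ cells, as that share was, at 0.320 to 0.480% against 0.454 to 0.740%, with overlap and all 8 genes detected in both. The bipolar and amacrine lists were also lower in TH+ cells at the median (0.112 against 0.145% and 0.351 against 0.422%). The ganglion cell list was higher (0.117 against 0.102%), and the ranges of these lists overlapped too. The part of any of these lists in the share was not tested.

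The calcium pumps were led by Atp2b2 in all 10 amacrine libraries on the per kilobase scale. It had 531, 629, 470.5, 562 and 396 CPM in TH+ cells and 598, 717, 543, 554 and 599 CPM in TH− cells (log2 fold change -0.18 ± 0.18, edgeR, adjusted p = 0.855). Atp2b1 had 188 to 330 CPM (median 216) in TH+ and 205 to 341 (median 243) in TH− cells (-0.24 ± 0.24, adjusted p = 0.855). Atp2b4 had 108 to 259 CPM (median 132) and 151.2 to 239.6 (median 179), with a log2 fold change of -0.20 ± 0.27 (adjusted p = 0.908).

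Fewer UMIs stood behind the other genes. Atp2b3 had 122.5, 80.0, 0, 64.9 and 132 CPM in TH+ cells, from 20 UMIs in all, and 46.0, 23.1, 67.0, 39.9 and 91.6 CPM in TH− cells. The TH+ library of section 3 had 0 UMIs of 42507, which allows a level of up to 70.6 CPM. The log2 fold change of 0.59 ± 0.46 (edgeR, adjusted p = 0.787) was the largest of the 7. Without section 3 it was 0.94 ± 0.46, with an unadjusted p of 0.0486 and an adjusted p of 0.649 in edgeR, and without section 1 or section 2 it was 0.32 ± 0.53 and 0.37 ± 0.51 (adjusted p = 0.946 and 0.904). Atp1b3 had 20.4 to 118 CPM in TH+ cells, from 19 UMIs, and 32.9 to 75.2 CPM in TH− cells (0.49 ± 0.43, adjusted p = 0.8199).

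**Figure D4:**
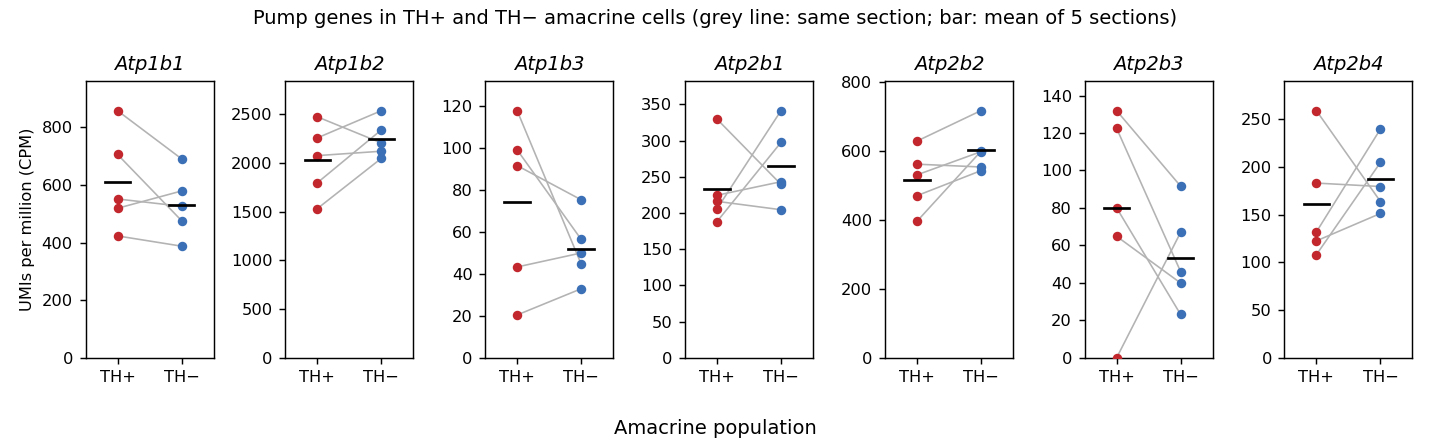
CPM of each pump gene in TH+ and TH− amacrine cells, with 1 point per section, grey lines joining the libraries of a section and black bars at the means (n = 5), on axes that start at 0. The populations overlap for every gene, and the Atp2b3 point at 0 is the TH+ library of section 3.

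Genes that work with these pumps were counted from a list of sodium pump alpha and FXYD subunits, pump-interacting proteins, other calcium pumps, sodium-calcium exchangers and calmodulins. Of 31 listed genes with a row in the layer table, 22 passed the low-count filter. ONL libraries had 5 of them higher and 9 lower than BCL libraries (median log2 fold change of the 22 -0.37), where 18.5% and 18.2% of all genes were called and their median was 0.09. Compared with the GCL, 4 were higher and 15 lower in ONL libraries (median -1.61), where 29.3% and 32.2% of all genes were called with a median of 0.00. From the BCL to the GCL, 11 were higher and 3 lower, beside 20.4% and 16.1% of all genes, with medians for the BCL over the GCL of -0.52 in the list and -0.02 over all genes.

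Slc24a1, the sodium-calcium-potassium exchanger of rods, had the smallest adjusted p of the partners higher in the ONL, at 2797 ± 469 CPM against 659 ± 168 in the BCL and 271 ± 75.1 in the GCL (log2 fold change 2.42 ± 0.15 over the BCL and 3.54 ± 0.15 over the GCL, edgeR, adjusted p = 1.47e-19 and 4.58e-27). Slc24a4, another exchanger of this family, was highest in the BCL, at 218 ± 25.2 CPM, with 38.0 ± 8.16 CPM in ONL and 23.7 ± 7.17 CPM in GCL libraries (3.00 ± 0.21 for the BCL over the GCL, adjusted p = 8.97e-18, and 0.83 ± 0.24 for the ONL over the GCL, adjusted p = 0.00293).

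Calm3, a calmodulin gene, encodes the activator of the calcium pumps and was highest in the GCL. It had 282 ± 36.2 CPM in ONL, 584.5 ± 66.9 CPM in BCL and 1466 ± 112 CPM in GCL libraries (-2.20 ± 0.12 for the ONL over the GCL, edgeR, adjusted p = 2.38e-23, and -1.49 ± 0.12 for the BCL over the GCL, adjusted p = 1.31e-15). Slc24a3, a broadly expressed exchanger, had 55.8 ± 24.1 CPM in the ONL and 383 ± 54.2 in the BCL (-2.39 ± 0.19, adjusted p = 5.33e-16). Fxyd7, a brain regulator of the sodium pump, had 241 ± 27.9 CPM in the GCL, 9.83 ± 8.91 in the BCL and 21.9 ± 9.26 in the ONL (-4.72 ± 0.32 for the BCL over the GCL and -3.27 ± 0.20 for the ONL over the GCL, adjusted p = 2.87e-18 and 4.42e-21).

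In the amacrine cells 19 of 30 listed partners were tested, and 1 was called higher in TH+ and 0 in TH− cells, beside 0.747% and 0.083% of the 6021 genes tested. The median log2 fold change of the 19 was -0.12, against -0.052 over all genes tested. The gene called was Slc24a1, with 796.5 ± 175 CPM in TH+ and 434 ± 138 in TH− cells (log2 fold change 0.84 ± 0.20, edgeR, adjusted p = 0.0195). The rod list given above was also higher in the TH+ libraries, with overlap, and its part in this call was not tested.

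The genes most like each member over the 12 layer libraries were ranked by Pearson's r of log2 CPM among 4584 genes, as a description in which the libraries share layers and sections. Atp1b2 was most like Slc17a7 (r = 0.995), the vesicular glutamate transporter of photoreceptors and bipolar cells, Fam169a (0.994) and Crb1 (0.994), and Atp1b1 most like Niban2 (0.993), Prrg3 (0.992) and Clec2l (0.989). Atp2b2 was nearest to Kif5a (0.995), a neuronal kinesin, Apbb2 (0.993) and Tppp3 (0.992). Atp2b3 had 3 genes at 0.992, namely Tns3, Cbx6 and Pak1, and Atp2b4 was nearest to Chd3 (0.990), Cartpt (0.987) and Cdk14 (0.987). The nearest genes of Atp2b1 were Tafa3 (0.982), Car2 (0.980) and Lbh (0.976), and those of Atp1b3, the member with the fewest UMIs in the layers, were Kcnh2 (0.969), Syt2 (0.967) and Setd7 (0.966).

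Mouse 3T3 fibroblasts, a connective tissue line that was barcoded in 3 wells of a mixed culture, gave a reference without neurons. Over 540880 UMIs, Atp2b1 had 52 UMIs, Atp1b3 had 49, Atp1b1 had 21 and Atp2b4 had 1. Atp1b2, Atp2b2 and Atp2b3 had 0, which allows up to 5.55 CPM over the wells together. Per kilobase, Atp1b3 stood above Atp1b1 in the fibroblasts (36.9 and 11.7 CPM per kilobase), the reverse of every retinal population. The wells also held human HEK cells, and the paper reports that a small part of the human reads carried the barcode of the mouse cells. The part of human cDNA in these counts was not tested.

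On GRCm39, in an annotation release later than that of the counts, Atp1b1 (ENSMUSG00000026576) lies on chr1:164264678-164285957, Atp1b2 (ENSMUSG00000041329) on chr11:69487651-69496851 and Atp1b3 (ENSMUSG00000032412) on chr9:96214674-96246814, all on the minus strand. Atp2b1 (ENSMUSG00000019943) lies on the plus strand of chr10:98750268-98862488, Atp2b2 (ENSMUSG00000030302) on the minus strand of chr6:113720766-114021022, Atp2b3 (ENSMUSG00000031376) on the plus strand of chrX:72546384-72614614 and Atp2b4 (ENSMUSG00000026463) on the minus strand of chr1:133627195-133728923. The counts come from exons of each gene and do not separate its splice forms.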

How the data were processed

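Retinal sections were profiled by Light-Seq. Per the labels and the study's methods, the authors took barcode and UMI from read 1 with UMI-tools 1.1.1, mapped cDNA with STAR 2.7.9a to mouse mm39 (GENCODE vM27), left out multimapped reads, gave the rest to annotated exons using featureCounts at its default settings and collapsed UMIs per gene. The deposited counts are whole UMI counts without normalization, with 2 ribosomal RNA genes removed by the authors. Gene lengths come from their 3T3 tables. Tables that pool other libraries, and deposited TPM values, were not used.

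CPM was a gene's count divided by its library total. Layers (12 libraries) and amacrine cells (10) were fitted separately with the edgeR 4.0.16 quasi-likelihood test (R 4.3.3, TMM, genes kept with a CPM worth 3 UMIs in a library of median size in at least as many libraries as the smallest group, and 10 UMIs in total), over 11324 and 6021 genes, with Benjamini-Hochberg adjustment at 0.05. All 7 members passed the filter in both tables. The standard error is the log2 fold change divided by the square root of F. Isoform shares were compared by exact two-sided permutation over sections. With 4 against 4 the smallest p is 0.0286, with 5 against 5 it is 0.00794, and with 3 against 3 it is 0.1. Intervals implied by 3 UMIs cover counting error only. The procedures were tested on simulated data. DESeq2 1.42.0, other scalings and filters, the section as a block, no mitochondrial genes, each section left out and a 2-fold limit were alternatives.

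Libraries of one number come from one section and are paired by design. Residuals from group means correlated at 0.0116 to 0.0493 over the 12 same-section pairs of layers and at 0.0287 to 0.2565 over the 5 amacrine pairs. The members and lists were chosen with earlier results of these data known. Named partners are, in each comparison, the 2 genes per direction with the smallest adjusted p. Not every gene chosen this way is reported here. Python 3.11.15, numpy 2.4.6, pandas 2.3.3, scipy 1.17.1 and matplotlib 3.10.9 were used. Human cells and the pooled layer library were not analysed here.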

Additional observations from a re-analysis of the deposited data

Results flagged for a closer look

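Of 70 groups of 4 or 5 libraries examined for CPM or isoform share, 4 held a library whose gap to its nearest neighbour, as a part of the group's range, passed Dixon's 95% critical value. Chance flags about 1 in 20 groups. Atp2b1 had 329.8 CPM in the TH+ library of section 5, the one with the fewest UMIs, against 188 to 225 CPM in the other 4. In the BCL library of section 3, Atp2b2 took 27.85% of the calcium pump signal, against 24.96 to 25.21% in the other sections, and Atp2b3 took 7.287%, against 11.4 to 12.3%. Both values come from the same library, and shares within a class depend on each other. Atp2b4 took 29.84% in the TH+ library of section 3, against 10.8 to 15.7% in the others, and this is the library in which Atp2b3 had no UMI.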

How the results depend on the processing

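Under every alternative except the 2-fold limit, Atp1b1, Atp2b2, Atp2b3 and Atp2b4 stayed lower, and Atp1b2 and Atp2b1 higher, in ONL and BCL libraries than in GCL libraries, each past the threshold. Default filtering in edgeR removed Atp1b3 and Atp2b3 from the amacrine test. The section as a replicate block left the members called at 1 and 4 (ONL against BCL), 2 and 5 (ONL against GCL) and 2 and 4 (BCL against GCL) and changed no member's call. Requiring a 2-fold change lowered the calls higher in the ONL from 1 to 0 over the BCL and from 2 to 1 over the GCL, and those higher in the BCL than in the ONL from 4 to 2. Leaving out 1 section gave 1 to 5 members higher in the BCL than in the ONL (2 without section 3 and 1 without section 4). Layer shares with an exact p under 0.05 went from 16 to 0 in the paired exact test, whose smallest p is 0.125, and to 0 to 0 with 1 section left out, where 3 against 3 cannot pass. Amacrine shares went from 1 to 0 with plain UMIs and with pairing, and to 0 to 0 with 1 section left out. Signs changed for differences that were not called: Atp1b1 in TH+ over TH− cells without the filter (-0.031), Atp1b3 in the BCL over the GCL with library totals (0.070) and with 1 section left out (-0.36 to 0.067), the ONL minus BCL share of Atp2b2 with plain UMIs (-0.726 percentage points) and with 1 section left out (-1.34 to 1.99), and the TH+ minus TH− shares of Atp2b1 (-3.57 to 0.617) and Atp2b4 (-4.88 to 1.21) with 1 section left out. Over all genes, ONL libraries had 2096 calls higher and 2056 lower than BCL libraries, 1198 and 2889 with library totals and 1374 and 2055 with DESeq2. BCL libraries had 1826 calls higher and 2310 lower than GCL libraries, and 2353 and 1872 with library totals. TH+ cells had 45 calls higher and 5 lower, 34 and 32 without the filter, 96 and 52 with the block and 27 to 51 and 1 to 22 with 1 section left out. The cause was not tested. The ONL values of Atp1b3 and Atp2b3 rest on 23 and 20 UMIs.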
